A study of Mus musculus with 3 samples.

Results

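The interferon-stimulated genes described here are 42 genes of the antiviral and antibacterial response, taken by gene symbol from the 22457 genes counted in regulatory T cells of the mouse. Every one of the 42 was found in the files, and 41 had a mean count of at least 10 and were tested. The exception was Oas1g, with 2 counts in all. The cells were primary regulatory T cells of adult mice aged 4 months, with an origin in blood-forming bone marrow cells per the labels. The labels name no treatment, and neither the sorting gate nor the strain is stated in the sources used here. PolyA plus RNA-seq was run on 3 libraries, called libraries 1, 2 and 3. The labels give them as technical replicates 1, 2 and 3 of 1 biological replicate. There was therefore 1 group and no comparison between conditions.

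Interferons bind receptors on the cell surface, and kinases of the JAK family then phosphorylate STAT proteins. Type I interferons act mainly through a complex of STAT proteins and IRF9 that binds the interferon-stimulated response element (ISRE), whereas interferon gamma acts mainly through STAT dimers that bind gamma-activated sites (GAS). The induced proteins sense viral RNA, block its translation or replication, attack the vacuoles of intracellular bacteria and parasites, or tune the signal itself. Lymphocytes carry receptors for both kinds of interferon and hold some of these transcripts without infection.

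The promoters of the members held the letters of the ISRE more often than promoters in general. RefSeq start-site windows on GRCm38.p6, each reaching from 250 bases before to 50 bases after a gene's start, were at hand for 29 of the 42 members. The ISRE core was searched as GAAANNGAAA on both strands, which reads TTTCNNTTTC on the other strand. It was present in 17 of the 29 members (58.6%), against 3.99% of all 27025 genes with a window and 4.01% of the 8112 tested genes with one. Counted by window, since some genes have several, it was in 17 of 35 windows of members (48.6%) and in 3.44% of all 32851 windows. The GAS, searched as TTCNNNGAA, which reads the same on both strands, was present in 11 of the 29 members (37.9%), against 9.55% of all genes. Both motifs were found in 6 members, namely Eif2ak2, Oas1a, Gbp7, Igtp, Irgm2 and Bst2, and the matches overlapped in Bst2. A match is a description of the letters and not a shown binding site.

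The stretches below were chosen because they carry an ISRE core in members of different roles, with the core in capitals and 15 bases on each side, 5′ to 3′ on the strand of the gene.
Isg15, minus strand, chr4:156200860-156200911: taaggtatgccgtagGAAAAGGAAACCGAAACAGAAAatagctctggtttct
Ifit1, plus strand, chr19:34640770-34640828: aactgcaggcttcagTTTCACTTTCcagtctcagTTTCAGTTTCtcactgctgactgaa
Ifit3, plus strand, chr19:34583358-34583431: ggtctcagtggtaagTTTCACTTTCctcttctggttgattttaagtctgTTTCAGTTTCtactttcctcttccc
Bst2, minus strand, chr8:71537572-71537617: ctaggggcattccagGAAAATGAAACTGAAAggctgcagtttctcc
Gbp2, plus strand, chr3:142620589-142620628: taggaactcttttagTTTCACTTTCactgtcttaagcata
Gbp3, plus strand, chr3:142559984-142560029: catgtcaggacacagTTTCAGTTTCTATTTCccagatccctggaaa
Gbp7, plus strand, chr3:142530268-142530307: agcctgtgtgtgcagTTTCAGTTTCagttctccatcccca
Irgm1, minus strand, chr11:48871420-48871465: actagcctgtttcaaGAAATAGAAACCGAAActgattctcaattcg
Igtp, plus strand, chr11:58199507-58199546: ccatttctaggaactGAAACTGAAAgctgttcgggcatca
Irgm2, plus strand, chr11:58214898-58214937: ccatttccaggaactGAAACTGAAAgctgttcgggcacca
Isg15 held 3 overlapping cores in a row, and 8 members held at least 2 cores. A run of 3 repeats, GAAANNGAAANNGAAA, was in 6 of the 29 members (20.7%) and in 0.133% of all genes. Of the 26 cores in members 23 began upstream of the start site. Igtp and Irgm2, immunity-related GTPase genes that lie next to each other, shared the core and a GAS match just before it.

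**Figure D1:**
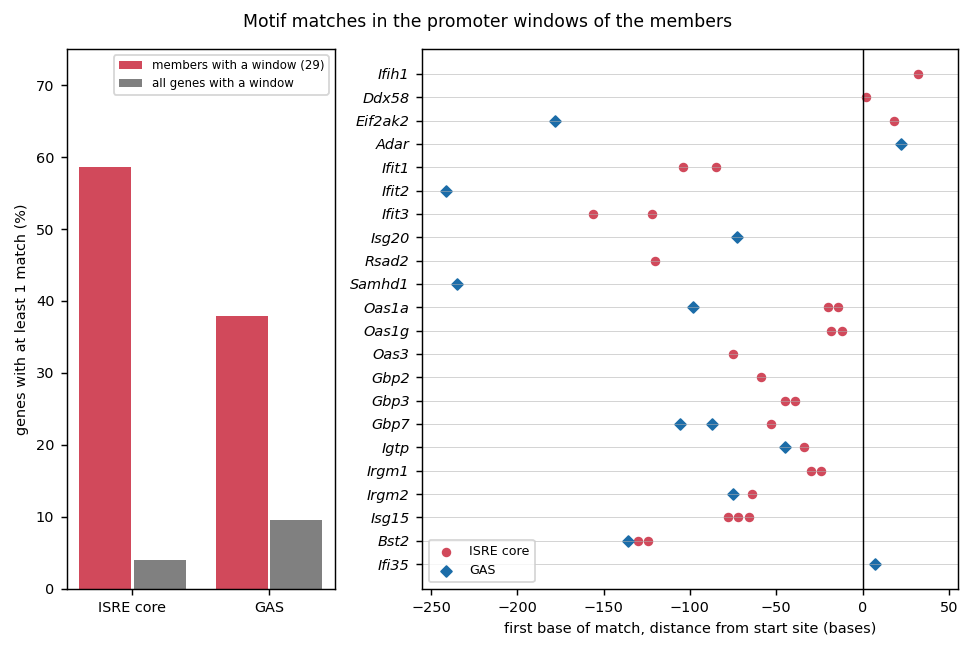
Left, the share of genes (%) with at least 1 motif match in their RefSeq promoter window, for the 29 members with a window and for all genes with a window; right, the distance in bases of each match's first base from the start site, by member. The ISRE core was in 58.6% of members and 3.99% of all genes, and most cores lay upstream of the start site.

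Levels are given as CPM, the count per 1000000 counts of the same library, divided by the length of the coding sequence in kilobases. This serves to compare genes of different length, but the divisor leaves out untranslated exon sequence, so ranks depend on it. Values are mean ± SD over the 3 libraries (n = 3 throughout). This SD is the spread between libraries of 1 biological replicate and says nothing of the spread between animals. Library totals were 3206781, 3228215 and 2872350 counts, and 3 counts, taken as the limit that a count of 0 allows, equalled 0.936, 0.929 and 1.04 CPM in libraries 1, 2 and 3. Intervals and limits cover counting error only. The defining markers Foxp3, Il2ra, Ctla4, Ikzf2, Ikzf4, Tnfrsf18, Cd4 and Cd3e were all present, with Foxp3 at 142, 157 and 150.4 CPM. Markers of B cells were present in every library, with summed levels of 341, 433 and 596 CPM over 11 genes in libraries 1, 2 and 3. The 10 neutrophil and 9 erythroid markers were nearly lacking in library 1, at 1.87 and 9.36 CPM in sum, against 82.1 and 221 CPM in library 2 and 12.2 and 185 CPM in library 3. In such bulk samples fewer cells of a type and less RNA per cell cannot be told apart.

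Most interferon-stimulated genes were well expressed in the regulatory T cells, with a wide range between families. Of the 42 members 41 reached 1 CPM in every library, and the same number reached 5 CPM in every library. Their median level was 111 CPM per coding kilobase, against 33.9 CPM per coding kilobase over all 10231 genes tested that have a coding length. Of the 42 members 31 lay above the latter value. Levels spanned 0.18 CPM per coding kilobase for Oas1g to 707 CPM per coding kilobase for Ly6e. Together the members took 0.853% of the counts in library 1 (95% exact binomial interval 0.843 to 0.863%), 0.843% in library 2 (0.833 to 0.853%) and 0.900% in library 3 (0.889 to 0.911%). Ly6e, Ifi27l2a, Samhd1 and Igtp had the 4 highest levels per coding kilobase. The 2-5A synthetase family and the Mx genes had low median levels of 18.1 and 9.08 CPM per coding kilobase.

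**Figure D2:**
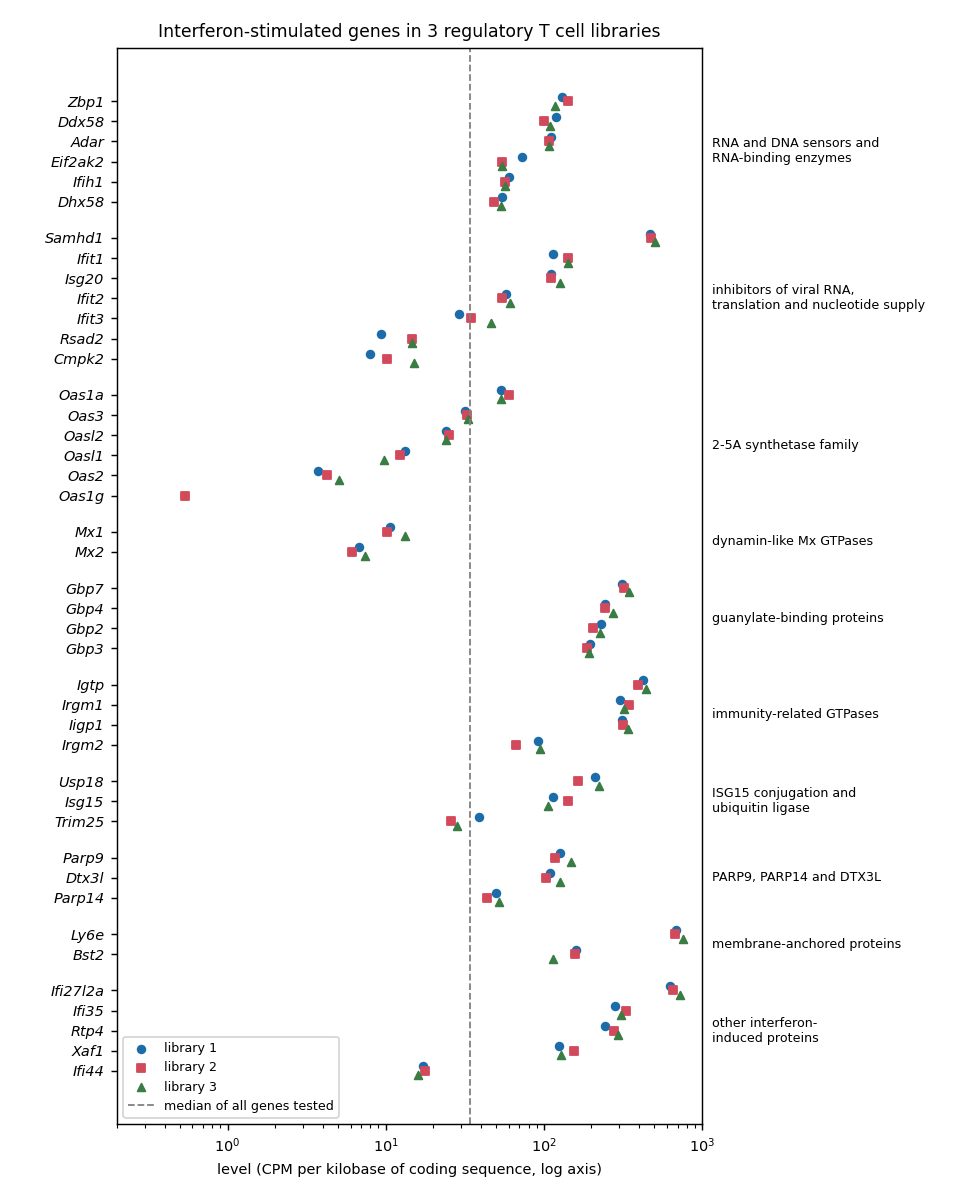
Level of each of the 42 members in CPM per kilobase of coding sequence (log axis) in libraries 1, 2 and 3, grouped by role; the dashed line is the median of all genes tested, 33.9. The guanylate-binding and immunity-related GTPases lie right of the line in every library and the Mx genes left of it; Oas1g has a point in library 2 only, since it had no count in the others.

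**Figure D3:**
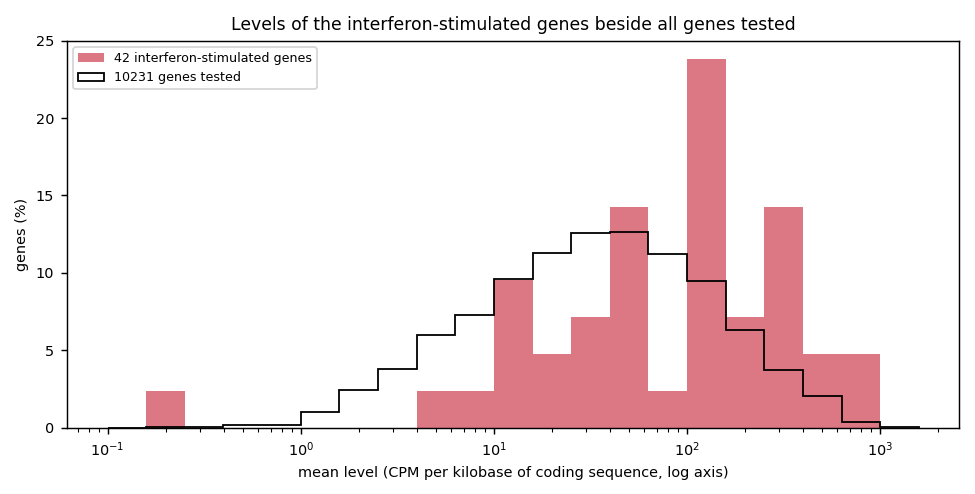
Share of genes (%) by mean level in CPM per kilobase of coding sequence (log axis) for the 42 interferon-stimulated genes (filled) and for 10231 genes tested (outline). The members' median of 111 lies right of the median of 33.9 over all genes tested.

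The sensors of nucleic acid were present at moderate levels, between 52.4 and 130.04 CPM per coding kilobase. Ifih1 (MDA5) and Ddx58 (RIG-I) recognise viral double-stranded RNA, and Dhx58 (LGP2) modulates both. Their levels were 58.0 ± 2.30, 109.9 ± 9.85 and 52.4 ± 3.22 CPM per coding kilobase. Ddx58 had 1070, 901 and 870 counts in libraries 1, 2 and 3, and Ifih1 had 598, 562 and 501. Zbp1, a sensor of Z-form nucleic acid, stood at 130.04 ± 11.6 CPM per coding kilobase, and Adar, which edits adenosine in double-stranded RNA, at 109.0 ± 1.84. Eif2ak2, the RNA-activated kinase PKR that blocks translation, stood at 60.3 ± 10.5 CPM per coding kilobase, with 359 counts in library 1 against 270 and 241 in libraries 2 and 3. All 6 genes of this role were above the median of all genes tested. Exons of Adar overlap Chrnb2 on the other strand, and 20.8% of its exonic 32-base words also occur in that gene, so its count is uncertain where strand was not used.

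Among the inhibitors of viral RNA, translation and nucleotide supply, 1 gene stood far above the others per coding kilobase. Samhd1, a phosphohydrolase that lowers the pool of deoxynucleotides, reached 483 ± 18.9 CPM per coding kilobase, with 3089, 3197 and 2988 counts. Its lead depends on the divisor, since it has 2067 coding and 9150 exon bases, against 1389 and 2656 for Ifit1. Ifit1, which binds viral RNA that lacks cap methylation, stood at 133.0 ± 16.7 CPM per coding kilobase, with 507 counts in library 1 against 641 and 568 in libraries 2 and 3. Isg20, an RNA exonuclease, stood at 116 ± 8.29 and Ifit2 at 57.7 ± 3.29 CPM per coding kilobase. Ifit3 had 112, 135 and 161 counts (36.6 ± 8.91 CPM per coding kilobase). Its copy Ifit3b carries 61.1% of the same exonic 32-base words and had 26, 35 and 37 counts, so the split between them is uncertain. The radical enzyme gene Rsad2 (viperin) and the nucleotide kinase gene Cmpk2 are neighbours on chromosome 12, within 26442746 to 26479837. Each held 136 counts over the 3 libraries, and their levels of 12.9 ± 3.11 and 11.0 ± 3.66 CPM per coding kilobase were among the lowest of the members. Both had 34 counts in library 1, with 54 and 48 for Rsad2 and 44 and 58 for Cmpk2 in libraries 2 and 3.

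The 2-5A synthetase family is named for enzymes that make the oligoadenylates that activate RNase L, and most of its 6 genes were below the typical gene. Their median level was 18.1 CPM per coding kilobase, and 1 of the 6, Oas1a at 55.8 ± 4.04, lay above the median of all genes tested. Oas3, Oasl2, Oasl1 and Oas2 followed at 32.6 ± 0.646, 24.3 ± 0.715, 11.8 ± 1.79 and 4.36 ± 0.673 CPM per coding kilobase. Oas1a, Oas1g, Oas2 and Oas3 share a cluster on chromosome 5 (120730333 to 120907521), and Oasl1 and Oasl2 a second one (114896936 to 114937915). Oas1a and Oas1g stand side by side in the first cluster and differed widely in counts, with 188, 215 and 170 for Oas1a and 0, 2 and 0 for Oas1g. The pooled ratio was 287 (95% exact binomial interval 79.0 to 2371). Their promoter windows were 85.3% identical, and the 100 bases around the start site are shown because they carry the same pair of overlapping ISRE cores (capitals).
Oas1a, minus strand, chr5:120907516-120907615: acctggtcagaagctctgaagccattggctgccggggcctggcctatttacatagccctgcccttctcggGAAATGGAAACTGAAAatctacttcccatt
Oas1g, minus strand, chr5:120887604-120887703: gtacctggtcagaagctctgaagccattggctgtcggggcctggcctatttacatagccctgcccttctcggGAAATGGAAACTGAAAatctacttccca
Of the exonic 32-base words of Oas1g 64.2% also occur in Oas1a, so reads from the shared part may have been assigned to either gene or to none, and the counting rule for such reads is not given in the sources used here.

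Mx1 and Mx2, dynamin-like GTPases that act against viruses, were both low. Mx1 had 64, 62 and 72 counts (11.4 ± 1.69 CPM per coding kilobase) and Mx2 43, 39 and 42 (6.78 ± 0.645). The annotation lists Mx2 as a polymorphic pseudogene, and many laboratory mouse strains carry disrupted Mx genes. The genes lie together on chromosome 16 (97447035 to 97560900).

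The GTPases that act on vacuoles of intracellular pathogens were high, with Irgm2 the lowest of them. The 4 guanylate-binding proteins ranged from 193 to 328 CPM per coding kilobase, with Gbp7 at 328 ± 17.0, Gbp4 at 254 ± 16.8, Gbp2 at 220.5 ± 12.9 and Gbp3 at 193 ± 4.24. Gbp7 had 1924, 1994 and 1905 counts. Gbp7, Gbp3 and Gbp2 lie in 1 cluster on chromosome 3 (142530342 to 142638008), with Gbp4 on chromosome 5. Of the immunity-related GTPases Igtp stood at 420 ± 26.8, Irgm1 at 324 ± 19.7 and Iigp1 at 322 ± 14.4 CPM per coding kilobase, and Irgm2 was lower at 84.5 ± 15.3. Irgm1 and Irgm2 regulate the GTPases that load onto vacuoles, such as Iigp1. Igtp and Irgm2 are neighbours whose annotated exons overlap by 162 bases, and Igtp had 5.18 times as many pooled counts as Irgm2 (95% exact binomial interval 4.83 to 5.56). All 8 GTPase genes of these families lay above the median of all genes tested, against 1 of the 8 genes of the synthetase and Mx families.

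Genes of ISG15 conjugation were unequal. Isg15, a ubiquitin-like protein attached to other proteins, stood at 120.7 ± 19.2 CPM per coding kilobase, with 176, 222 and 147 counts. Usp18, which removes ISG15 and also damps signalling at the type I receptor, was higher, at 199.6 ± 31.2 CPM per coding kilobase. It had 748, 586 and 709 counts. The size of this difference depends on the divisor, since Isg15 has 483 coding and 756 exon bases and Usp18 1105 and 2790. Trim25, a ubiquitin ligase that activates RIG-I, was at 31.1 ± 6.90, with 238 counts in library 1 against 160 and 155 in libraries 2 and 3.

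Parp9, Dtx3l and Parp14 lie within 140 kilobases on chromosome 16 (35832874 to 35972605) and were present at 130.3 ± 16.0, 113 ± 12.5 and 48.6 ± 4.19 CPM per coding kilobase. PARP9 is a macrodomain protein that forms a complex with the ubiquitin ligase DTX3L, and PARP14 is an ADP-ribosyltransferase. Parp9 had 1066, 997 and 1122 counts and Dtx3l 824, 784 and 860, so both were lowest in library 2 and highest in library 3. The annotated exons of Parp9 and Dtx3l overlap by 458 bases on opposite strands, and reads from that part cannot be told apart without strand.

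The highest levels per coding kilobase belonged to Ly6e and Ifi27l2a, whose coding sequences are short (457 and 270 bases). With its untranslated parts Ly6e has 3784 exon bases, against 463 for Ifi27l2a. Its mean of 323 CPM, not divided by length, was below the 998 of Samhd1 and the 533 of Igtp, so its rank depends on the divisor. Ly6e, which encodes a membrane-anchored protein that restricts entry of some viruses, reached 707 ± 42.7 CPM per coding kilobase, and Ifi27l2a, a short gene of the ISG12 family, 668 ± 48.4. Their counts were 1006, 1002 and 993 for Ly6e and 545, 568 and 560 for Ifi27l2a, although the total of library 3 was 89.6% of that of library 1. They stood at 2.19 and 2.07 counts per coding base, and 26 of the 21589 genes that have 200 or more coding bases exceeded 2. Bst2 (tetherin), which holds budding virus at the cell surface, stood at 144 ± 25.5 CPM per coding kilobase, with 266, 261 and 170 counts. Ifi35, a partner of NMI in innate signalling, stood at 306 ± 24.4, and Rtp4, which regulates type I interferon responses, at 272 ± 25.7. Xaf1, a pro-apoptotic protein gene, stood at 136 ± 16.4 and Ifi44 at 16.9 ± 0.875 CPM per coding kilobase.

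Each gene's 3 counts were set against Poisson expectation in a chi-square test, with library sizes scaled by TMM and p-values adjusted by Benjamini-Hochberg over 10282 genes. Of the 41 members tested 20 differed beyond counting error (48.8%), against 27.6% of all genes tested. The test finds more at higher counts, and among genes with a mean count of at least 100 it called 19 of 34 members (55.9%) and 35.5% of all. Library 3 was the highest for 14 of the 20 members (70.0%), library 1 for 5 and library 2 for 1, against 28.1%, 40.3% and 31.6% of all called genes. As shares of all genes tested, 7.75% were called with library 3 highest, 11.1% with library 1 highest and 8.71% with library 2 highest. The differences were small, since the highest library exceeded the lowest by a median ratio of 1.17 over members tested and 1.25 over all genes tested, and a highest ratio of 1.90 in members. With a variance that allows the 12.5% coefficient of variation typical of all genes between these libraries (negative binomial), 0 members passed, and 0 had an unadjusted p under 0.05. The same model called 0.904% of all genes, with 689 genes at an unadjusted p under 0.05.

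The members that were highest in library 3 came from several roles. Usp18 exceeded its library 2 level by 1.39-fold in library 3 (1.25 to 1.55 as exact binomial 95% bounds), and Parp9 by 1.29-fold (1.19 to 1.41). The chi-square test gave them adjusted p of 9.72e-08 and 4.55e-07. Dtx3l, Parp14, Irgm2 and Igtp were also lowest in library 2, with ratios of 1.26, 1.21, 1.45 and 1.16 and adjusted p of 0.000147, 0.00235, 8.22e-05 and 0.000746 in the same chi-square test. Gbp4 and Ly6e were the others lowest in library 2, with ratios of 1.14 each. Ifit3, Ifit1 and Cmpk2 were lowest in library 1, with ratios of 1.60 (1.25 to 2.05), 1.25 (1.10 to 1.41) and 1.90 (1.22 to 2.99) and adjusted p of 0.00257, 0.00273 and 0.0289 in the chi-square test. Rtp4, Gbp7 and Samhd1 differed likewise by 1.20-fold or less. With plain totals as library sizes Ifit1 was highest in library 2 instead.

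The members that were highest in library 1 included sensors. Ddx58, Eif2ak2 and Trim25 in library 1 exceeded library 2 by 1.23-fold, 1.37-fold and 1.54-fold, with exact binomial 95% bounds of 1.25 to 1.89 for Trim25. Their adjusted p by chi-square were 0.000425, 0.000554 and 0.000448. Gbp2 differed by 1.15-fold between the same libraries, and Bst2 in library 1 exceeded library 3 by 1.41-fold (adjusted p = 0.00848, chi-square). Xaf1 was the member highest in library 2, by 1.21-fold over library 1. With plain totals as library sizes 21 members passed, and the highest was library 3 for 12, library 1 for 4 and library 2 for 5. Here Ifi35, Irgm1 and Isg15 passed and Gbp2 and Ly6e did not. Of all genes tested 27.9% passed with plain totals, and 24.3% of these were highest in library 3. None of the 5 synthetase family genes tested and neither Mx gene passed, with adjusted p between 0.349 and 0.983 in the chi-square test. At their counts, 28 to 362 per library, ratios of up to 2.31 for Oas2 and 1.21 for Oas3 lay within the 95% exact binomial intervals.

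**Figure D4:**
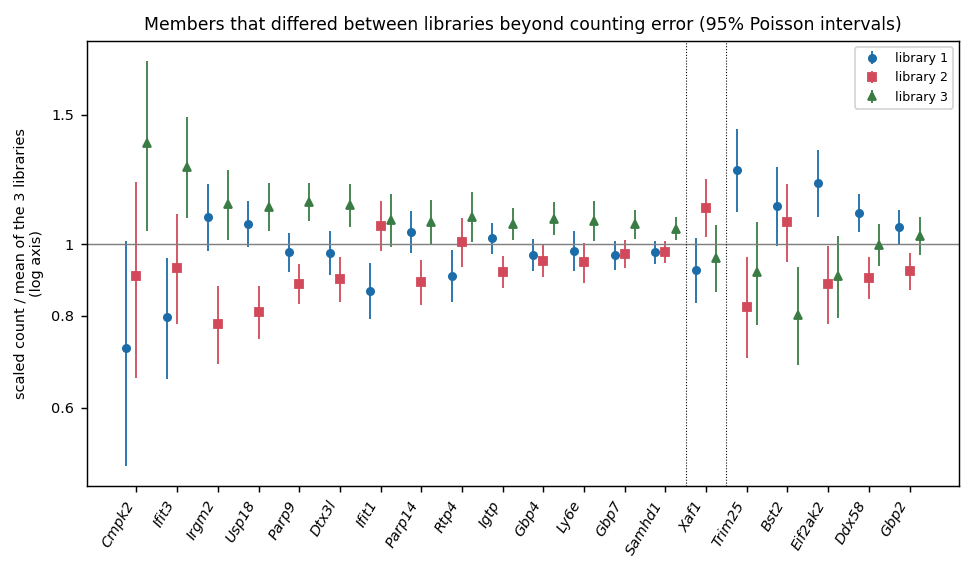
Scaled count of each of the 20 members that differed, divided by its mean over the 3 libraries (log axis), with 95% Poisson intervals; dotted lines separate members highest in library 3, library 2 and library 1. The first 14 members are highest in library 3, and the ratio of highest to lowest is 1.90 in Cmpk2.

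Of the 20 members 15 passed in 2 of the 3 pairs of libraries, 5 passed in 1 pair, and 0 passed in all 3 (chi-square). The same split was not computed over all called genes, so these counts have no background. With library 1 left out 13 members passed (background 16.5%), with library 2 left out 12 (9.38%), and with library 3 left out 12 (19.5%). Without library 3 the calls of Bst2, Cmpk2, Dtx3l, Gbp4, Gbp7, Ifit3, Ly6e, Parp9, Rtp4 and Samhd1 were lost (adjusted p from 0.127 to 0.867, chi-square), and Ifi35 and Irgm1 passed. Without library 2 those of Ddx58, Gbp2, Igtp, Irgm2, Ly6e, Parp14, Usp18 and Xaf1 were lost (0.159 to 0.826, as adjusted p by chi-square). Without library 1 those of Cmpk2, Ddx58, Eif2ak2, Ifit1, Rtp4, Trim25 and Xaf1 were lost (0.107 to 0.887, as adjusted p by chi-square). Cell markers moved with the libraries too. Of 8 regulatory T cell markers 2 passed the chi-square test. Il2ra was lowest in library 2 and highest in library 3, with 1217, 1107 and 1252 counts in libraries 1, 2 and 3. Cd4 was highest in library 1, with 1983, 1721 and 1440. Of 10 B cell markers tested 8 passed the same test, all 8 highest in library 3, and none of the 11 was at 0. With the negative binomial variance 3 of these B cell markers still passed. Of 6 plasmacytoid dendritic cell markers tested 4 passed, 3 of them highest in library 3. The list summed to 305, 308 and 305 CPM in libraries 1, 2 and 3, but single genes moved in different directions. In library 1 Pacsin1, Lag3 and Ccr9 held 105, 99.8 and 64.2 CPM of that sum, and each other gene less. Spib had 12, 6 and 22 counts and Siglech, too low to be tested, 1, 2 and 11. Lag3, highest in library 2, had 320, 344 and 206. Of 8 monocyte and macrophage markers tested 4 passed, 3 of them highest in library 3, and the list summed to 311, 321 and 351 CPM. These 3, Csf1r, Cd68 and Itgam, were lowest in library 2, with 19, 23 and 10 counts, while Ms4a6c was highest there. Cybb and Ccr2, which did not pass, held 128 and 96.4 CPM of the sum in library 1. Of 4 NK cell markers tested 3 passed, 2 of them highest in library 3, and the list of 8 summed to 249.5, 310 and 318 CPM. Of 2 CD8 T cell markers tested 1 passed the chi-square test, Cd8a, with 14, 18 and 32 counts in libraries 1, 2 and 3. Of 5 plasma cell markers tested 1 passed, Jchain, with 92, 389 and 129 counts. Of the other plasma cell markers tested, Mzb1 and Xbp1 were highest in library 3 and Prdm1 and Irf4 in library 1. The 4 neutrophil and 7 erythroid markers tested all passed, none of them highest in library 1. The part of cells of other types in the differences between libraries was not tested.

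The density of counts per coding base also went with the libraries. This divisor leaves out untranslated exon sequence, so which members exceed 0.5 depends on it. Samhd1, for example, has 2067 coding bases and 9150 exon bases. Unscaled counts of library 3 over those of library 1 had a median log2 ratio of -0.03 in the 13 members above 0.5 counts per coding base, and 7 of the 8 called among them were highest in library 3. In the 28 tested members at or below 0.5 it was -0.10, and 7 of the 12 called were highest in library 3. Over all genes tested, 39.5% of those above 0.5 counts per coding base were called and 38.8% of the called were highest in library 3, and at or below 0.5 the shares were 26.0% and 25.9%. The median log2 ratio of unscaled counts was -0.17 over all genes tested, and the log2 ratio of the totals was -0.16. This median was not computed for all genes on either side of 0.5, so -0.03 and -0.10 have no background of like density. The part of this density in the members' differences was not tested.

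Most genes upstream of the members were present, while most interferon genes were not detected at this depth. Of 11 interferon genes Ifng alone reached 1 CPM in every library, with 18, 31 and 15 counts (14.7 ± 5.21 CPM per coding kilobase), and 8 had no count in any library, which allows up to 0.936, 0.929 and 1.04 CPM each. Ifnz had 4 counts in library 3 and Ifnk 2 and 1 in libraries 1 and 2. Among the receptors Ifngr1, a chain of the interferon gamma receptor, stood at 444 ± 14.4 CPM per coding kilobase and Ifnar1, a chain of the type I receptor, at 96.8 ± 11.9, while Ifnlr1, the lambda receptor chain, had no count. The kinase gene Jak1 was high, at 415 ± 23.8 CPM per coding kilobase. Of the regulatory factors Irf1 and Irf2 led at 317 ± 9.48 and 253 ± 3.92, and of the inhibitors the phosphatase genes Ptpn6 and Ptpn2 led at 256 ± 24.7 and 214 ± 19.7. The adaptor gene Myd88 stood at 104.7 ± 0.564 and the DNA exonuclease gene Trex1 at 85.1 ± 9.06 CPM per coding kilobase.

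Of the 32 tested genes of these 6 lists 11 differed between libraries (34.4%), against 27.6% of all genes tested, and the highest was library 3 for 4 of the 11, library 1 for 4 and library 2 for 3. Of 5 receptor genes 1 passed, Ifnar1, and it was highest in library 1 (ratio 1.30, adjusted p = 0.000319, chi-square). Of 6 kinase and STAT genes 4 passed, among them Jak1 and Stat2 (highest in library 3, ratios 1.14 and 1.20) and Tyk2 (highest in library 2, ratio 1.26). None of the 8 regulatory factors passed in the chi-square test, while 3 had an unadjusted p under 0.05, and 0 passed with the negative binomial variance. Of 6 inhibitors 4 passed, with Socs3 and Ptpn2 highest in library 2 and Ptpn6 and Pias1 highest in library 1. Mavs and Tlr7 passed among 6 adaptors and nucleases.

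**Figure D5:**
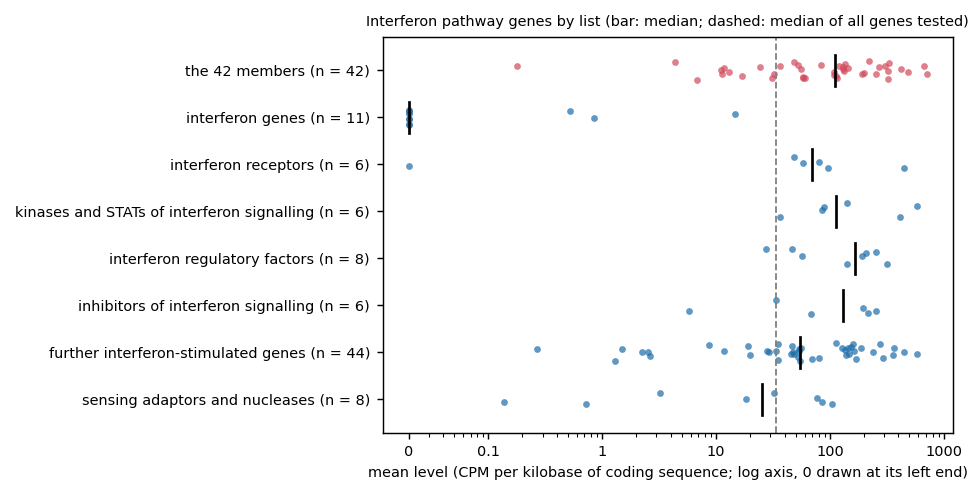
Mean level in CPM per kilobase of coding sequence (log axis, with 0 drawn at the left end) of the 42 members and of the genes of 7 other interferon pathway lists; each point is a gene, bars are list medians and the dashed line is the median of all genes tested. Ifng is the highest of the interferon genes at 14.7, and the medians of receptors, kinases and STATs, regulatory factors and inhibitors lie right of the dashed line.

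Levels of the members did not separate by the ISRE core. The 17 members that held it had a median of 109.9 CPM per coding kilobase and a range of 0.18 to 420, and the 12 that lacked it a median of 83.4 and a range of 11.0 to 483, so that the ranges overlapped widely. Of the members tested, 9 of 16 with the core and 5 of 12 without it differed between libraries, against 35.1% of the 325 genes tested that hold the core and 27.1% of the 7787 that lack it.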

How the data were processed

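The deposited values are whole-number counts per gene for 3 libraries, made from alignments to mm10 with GENCODE M4, per the file descriptions deposited with them. Which aligner and counter were used, whether strand was read and whether duplicates were removed is not given in the sources used here. Names, positions and coding lengths come from GENCODE M21 on the same assembly (GRCm38), which matched 22195 of 22457 identifiers. The members and lists were chosen with earlier results of these data known. The 42 members were all named; of the pathway lists, 89 of 92 entries matched, and the text names those that passed the test and the 2 with the highest level per list, apart from an item that is not reported here. Each total was multiplied by its TMM factor (0.990, 1.02 and 0.993). Chi-square tests (2 degrees of freedom) were run on genes with a mean count of at least 10, adjusted by Benjamini-Hochberg at 0.05. They were also tried on simulated Poisson counts, with some genes changed in library 2 and no other spread beyond counting error. That trial cannot show how the test behaves at the 12.5% coefficient of variation between these libraries. The p-values measure the spread between libraries that the labels give as technical replicates. These libraries also differed in markers of other cell types, and whether their spread is technical only was not tested. The alternatives tried were size factors of DESeq2 1.42.0, unscaled totals, other filters and thresholds, a negative binomial variance (edgeR 4.0.16, R 4.3.3), merged exon length, thinning and leaving out each library; the split by highest library and the background at a mean count of at least 100 were added after seeing the data. Python 3.11.15 was used with pandas 2.3.3, scipy 1.17.1 and numpy 2.4.6.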

Additional observations from a re-analysis of the deposited data

How the results depend on the processing

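The 41 members detected stayed at 41 at 5 CPM, at 1 count, after thinning and without each library. In the main test 20 of 41 members differed, with the share over all genes tested in brackets here and below (27.6%). The count was 21 with DESeq2 size factors (27.6%) or plain totals (27.9%). It was 18 of 42 without a filter (17.7%) and 19 of 37 at a mean count of at least 50 (33.2%). At an adjusted p of 0.01 it was 14 (16.5%), and with the negative binomial variance 0 (0.904%). Among genes at or below 0.5 counts per coding base, adjusted over these alone, it was 12 of 28 (25.6%). With library 1, 2 or 3 left out it was 13 (16.5%), 12 (9.38%) and 12 (19.5%). The number of these highest in library 3, 14, was 12 with plain totals, 9 at an adjusted p of 0.01, 7 under the same restriction, 0 with the negative binomial variance, and 9 to 12 without library 2 or 1. Fewer genes are tested under the restriction by counts per base, and the cause of the other changes was not tested. Ifit1 passed with plain totals (adjusted p = 0.00107, chi-square) but was then highest in library 2. The median level of 111 CPM per coding kilobase was 44.9 per kilobase of merged exons and 55.8 over members with 0.5 or fewer counts per coding base, which also held 0.328% of the counts in place of 0.866%. The median over all genes tested was not computed for either setting, so the value of 33.9 per coding kilobase is no background for them. With 1 library left out, the median was 109.8 to 112 and the share 0.848 to 0.877%. No paired analysis was possible because the labels give 1 group. All genes called numbered 2836, against 960 without library 2 and 93 with the negative binomial variance. Depth limits Oas1g, with 2 counts, and Oas2, with 28 to 34 counts per library.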

Other observations

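Further interferon-stimulated genes that are not among the 42 were present in the same cells. Of 44 such genes 42 reached 1 CPM in every library, and their median level was 54.6 CPM per coding kilobase, against 33.9 over all genes tested. Slfn2, a Schlafen gene needed for quiescence of T cells, stood highest at 584 ± 28.6 CPM per coding kilobase, followed by Sp100, a nuclear body protein gene, at 448 ± 26.7 (SD, n = 3 libraries each). Of the 40 tested 18 differed between libraries in the chi-square test at an adjusted p of 0.05, against 27.6% of all genes tested. Of the 18, the genes highest in library 3 were Ifit1bl1, Gbp9, Ifitm3, Ifi203, Ifi209, Ifi213, Trim30a, Sp100, Slfn2 and Rnf213, with ratios of the highest to the lowest library of 1.10 to 3.52. Uba7, which encodes the activating enzyme for ISG15, Parp11, Slfn5, Slfn8 and Tor3a were highest in library 1, and Gbp8, Parp10 and Trim21 in library 2. Ifitm3, with 12, 24 and 38 counts, had the highest ratio of these. With the negative binomial variance 0 of the 40 passed, while 4 reached an unadjusted p under 0.05.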
